A study of Mus musculus with 14 samples.

Results

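A set of 37 genes of DNA replication, nucleotide synthesis and the G1/S transition was followed over the arrays of this series. The genes were taken by the gene symbol of the array platform, each through the probe set that carries that gene alone and has the highest mean signal. They are 37 of the 19937 genes with such a probe set. Of these 37, 35 were among the 14438 genes tested, which on 2 or more arrays were brighter than 40 percent of that array's probe sets. Orc1 and Gins1 fell under that filter.

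Before S phase the origin recognition complex (Orc1, Orc6), Cdc6 and Cdt1 load rings of the Mcm2 to Mcm7 proteins onto origins, and Mcm10, Cdc45 and the GINS proteins turn the rings into moving helicases. Primase and the polymerases then copy each strand around the sliding clamp Pcna, ribonucleotide reductase and its partner enzymes supply deoxynucleotides, and cyclin E and the E2F transcription factors drive the entry into S phase. CD8 T cells that meet their antigen divide quickly in the first days of an infection, and transcripts of most of these genes rise and fall with that division.

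The series holds 14 arrays of mouse effector CD8+ T cells sorted on day 6 of an infection with Listeria carrying ovalbumin. All cells were of the C57BL/6J strain and came from fetal liver chimeras, from which donor cells were moved into congenic recipients a day before infection. There were 3 arrays of wild-type (WT) cells with high KLRG1, a surface receptor of terminal effector cells, and 5 arrays of WT cells with low KLRG1. A further 6 arrays held KLRG1lo cells of donors labelled Id2KO (2 arrays), BimKO (2 arrays) and Id2KOBimKO (2 arrays). The labels name the OT-I T cell receptor, which sees a peptide of ovalbumin, for each group other than Id2KOBimKO, and they do not say how the alleles were made or in which cells they are lost. Id2 is an inhibitor of E proteins and Bim, encoded by Bcl2l11, is a protein that promotes cell death. No label says that replicates came from separate animals, so each p-value measures the spread between these samples only.

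Values are log2 of the authors' RMA signal, and differences are differences of these log2 signals. The median linear signal of an array lay between 49.2 and 56.8, and the number of arrays limits the precision. The CD8 T cell markers averaged 11.1 to 11.7 on every array, with 7 of 7 above the filter. Klrg1 was 4.76 higher in WT KLRG1hi than in WT KLRG1lo cells (SE 0.28, adjusted p = 7.3e-08). Id2 fell by 1.13 in Id2KO (SE 0.19, adjusted p = 0.0162) and by 1.19 in Id2KOBimKO (SE 0.19, adjusted p = 0.0182) against WT KLRG1lo cells. Its log2 signal was still 9.88 and 9.73 in Id2KO and 9.84 and 9.645 in Id2KOBimKO, far above the background given below. Bcl2l11 differed by -0.088 on the arrays labelled BimKO (SE 0.18, adjusted p = 0.882) and by 0.20 on those labelled Id2KOBimKO (SE 0.18, adjusted p = 0.785) from WT KLRG1lo, so this probe set separated neither label from WT, and whether it lies in the deleted part was not checked. The names BimKO and Id2KOBimKO are used as labelled. The median log2 signal of probe sets with no gene name, used as the background here, lay between 5.01 and 5.39, and 33 of the 37 genes lay above it on every array.

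Many genes of S phase carry a binding motif for E2F near their start, so the promoters were searched for it. The RefSeq promoter table, on assembly GRCm38.p6, held 34 promoters of 30 of the 37 genes, each with 250 bases before the transcription start and 50 after it. The letters searched were TTTCCCGC, TTTCGCGC, TTTGCCGC and TTTGGCGC on both strands, with overlapping matches counted once per promoter. At least 1 of them was found in 12 of the 34 promoters (35.3%), against 2.26% of all 32851 promoters of that table and 3.57% of the promoters of genes tested. The 170 bases before the start are shown for 4 licensing genes, whose differences between the WT populations come below, with the matches in capitals and each sequence given 5′ to 3′ on the strand of its gene.
Orc1, chr4:108579284-108579453, plus strand: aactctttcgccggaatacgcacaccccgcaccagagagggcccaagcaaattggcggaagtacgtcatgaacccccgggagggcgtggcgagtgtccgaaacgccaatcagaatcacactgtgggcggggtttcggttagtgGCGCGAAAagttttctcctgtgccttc
Cdc6, chr11:98907981-98908150, plus strand: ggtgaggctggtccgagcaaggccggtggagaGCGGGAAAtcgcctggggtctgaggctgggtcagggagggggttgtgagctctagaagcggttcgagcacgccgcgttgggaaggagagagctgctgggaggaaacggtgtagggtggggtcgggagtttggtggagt
Mcm6, chr1:128359706-128359875, minus strand: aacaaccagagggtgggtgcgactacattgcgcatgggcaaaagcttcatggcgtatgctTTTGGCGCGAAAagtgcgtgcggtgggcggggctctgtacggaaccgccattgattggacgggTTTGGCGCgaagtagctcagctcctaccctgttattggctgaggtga
Mcm7, chr5:138171884-138172053, minus strand: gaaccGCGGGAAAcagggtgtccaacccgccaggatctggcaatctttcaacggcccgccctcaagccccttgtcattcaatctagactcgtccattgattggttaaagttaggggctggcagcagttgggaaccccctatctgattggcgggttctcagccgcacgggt
Mcm6, a subunit of the helicase ring, holds 3 matches, of which the first 2 overlap and the third lies nearer to the start. Orc1, Cdc6 and Mcm7 hold 1 match each in the stretch shown, and Mcm7 has another after its start. Among the genes tested, the 11 with a match in the whole window had a median difference between WT KLRG1hi and WT KLRG1lo cells of 0.41 on the log2 scale, and the 18 without a match had 0.32. The ranges overlapped, from 0.086 to 0.77 with a match and from -0.13 to 0.89 without one. CCAAT, another promoter motif, was found on either strand for 17 of the 30 genes (56.7%) and for 41.1% of all genes of the table. Of 14 genes of mitosis with a promoter in the table, 13 held CCAAT and 1 held the E2F letters. A match is a string of letters and was not tested as a binding site.

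The first comparison asks how the replication genes differ between the sorted WT populations. In KLRG1hi cells 33 of the 35 genes tested had a higher mean signal than in KLRG1lo cells, with a median difference of 0.345 on the log2 scale, while 50.5% of all genes tested were higher, with a median of 0.0017. None of the 35 passed limma's test at an adjusted p under 0.05, where 0.942% of all genes tested did. At an unadjusted p under 0.05 there were 17 of 35, all of them higher in KLRG1hi cells, against 4.34% of all genes tested that were higher at that level. Pold1 was the single gene whose arrays did not overlap, and 2.41% of all genes tested were higher without overlap. In bulk RNA, a smaller number of cells in S phase and a lower amount of these transcripts per cell cannot be told apart.

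**Figure D1:**
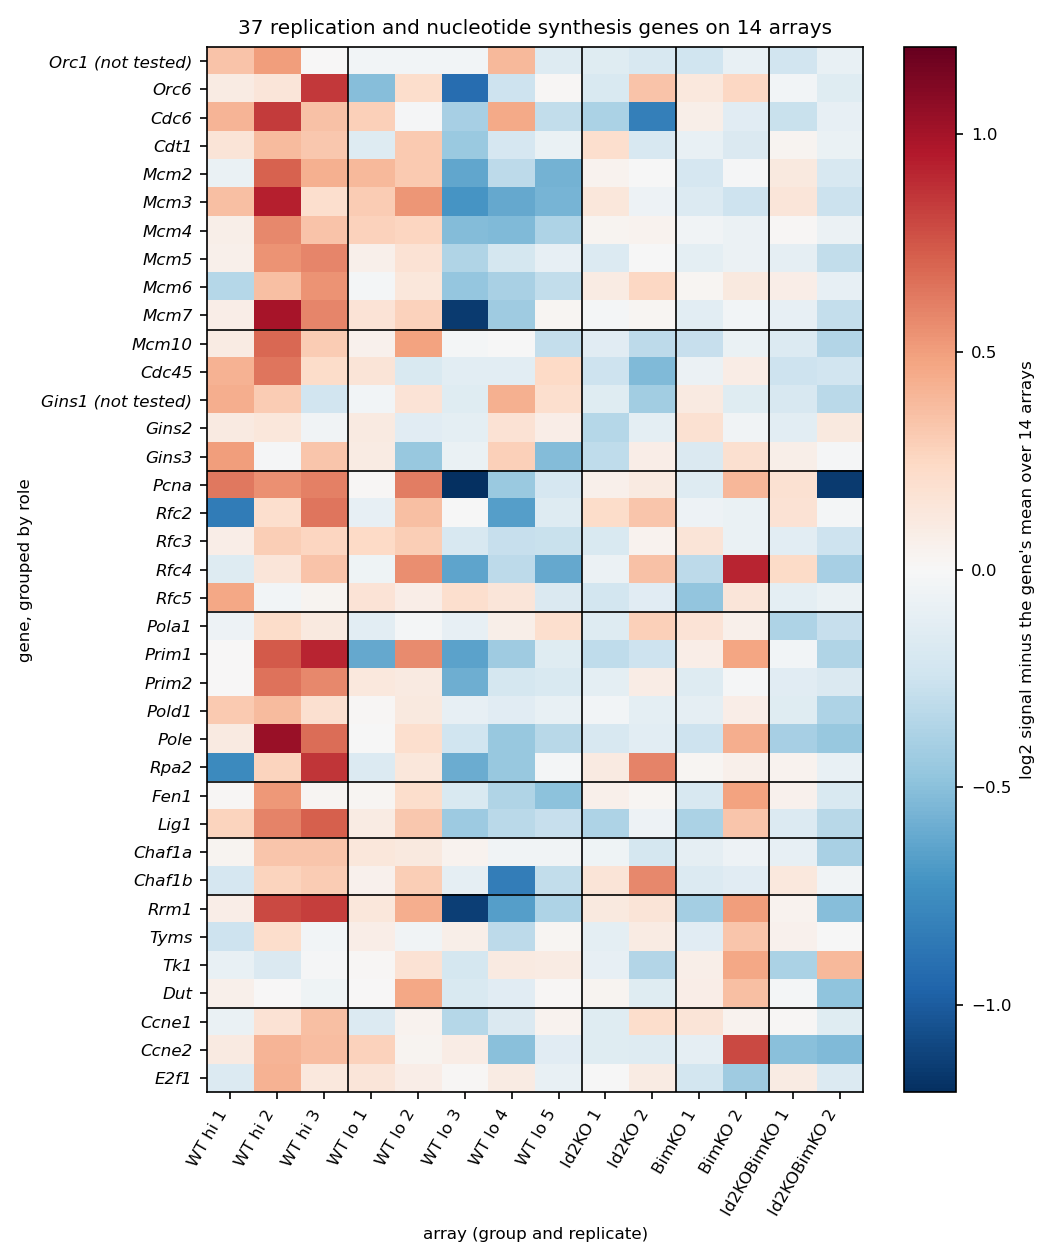
Log2 signal of each of the 37 genes (rows, grouped by role) on each of the 14 arrays (columns, grouped by genotype and sort), shown as the deviation from the gene's own mean over all arrays, with red above and blue below it and the strongest colours at the ends of the bar. WT KLRG1hi arrays 2 and 3 are red in most rows, WT KLRG1lo arrays 3 to 5 are blue in most rows, and so is Id2KOBimKO array 2, with 2 of 35 tested genes above their own mean.

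All 9 licensing genes tested were higher in KLRG1hi cells, by 0.40 to 0.77 with a median of 0.51. Of the 9, 8 had an unadjusted p under 0.05 in limma, against 4.34% of all genes tested that were higher at that level. Mcm7 (probe set 10534974), a subunit of the helicase ring, had the largest difference of the group. Its log2 signal was 7.59, 8.50 and 8.10 on WT KLRG1hi arrays 1 to 3 and 7.68, 7.79, 6.36, 7.08 and 7.53 on WT KLRG1lo arrays 1 to 5. KLRG1hi arrays 2 and 3 lay above every KLRG1lo array, KLRG1hi array 1 lay inside their range, and KLRG1lo array 3 lay far below the rest. The difference was 0.77 (SE 0.26, 95% interval 0.22 to 1.33, adjusted p = 0.323). On the arrays of the knockouts Mcm7 kept a narrow range, with 7.49 and 7.54 in Id2KO, 7.39 and 7.48 in BimKO and 7.42 and 7.23 in Id2KOBimKO.

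Mcm3, another ring subunit, had log2 signals of 8.34, 8.91 and 8.18 in WT KLRG1hi and 8.28, 8.51, 7.27, 7.36 and 7.42 in WT KLRG1lo. The KLRG1lo arrays fell into a high pair, arrays 1 and 2, which lay among the KLRG1hi arrays, and 3 low arrays, which did not. Its difference was 0.71 (SE 0.26, adjusted p = 0.404). Mcm2, Mcm4 and Mcm5 differed by 0.51, 0.51 and 0.48, and Mcm6 by 0.40, the only licensing gene tested whose interval reached 0 (-0.0040 to 0.80). The loader Cdc6 differed by 0.53, its partner Cdt1 by 0.40 and Orc6, the small subunit of the origin recognition complex, by 0.65, with adjusted p-values of 0.422, 0.522 and 0.367.

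Genes that activate the helicase were higher by less, with a median of 0.36 over 4 genes. Cdc45 (probe set 10438378), which joins the Mcm ring to form the active helicase, had log2 signals of 6.95, 7.17 and 6.75 in WT KLRG1hi and 6.69, 6.35, 6.41, 6.40 and 6.78 in WT KLRG1lo. KLRG1hi array 3 fell just under KLRG1lo array 5, and all other KLRG1hi values lay above all KLRG1lo values. The difference was 0.43 (SE 0.15, adjusted p = 0.325). Unlike Mcm3, Cdc45 had no split among the KLRG1lo arrays, whose arrays 1 and 2 averaged 6.52 and arrays 3 to 5 averaged 6.53. Gins3 differed by 0.41 and Mcm10 by 0.32, and Gins2, of the same GINS complex as Gins3, by 0.049 (95% interval -0.24 to 0.34).

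The clamp Pcna, which encircles DNA and holds the polymerases on it, stood apart from its loader. Pcna (probe set 10461391) had log2 signals of 10.73, 10.65 and 10.70 in WT KLRG1hi and 10.11, 10.71, 8.88, 9.65 and 9.90 in WT KLRG1lo. The KLRG1hi arrays lay close together, KLRG1lo array 2 was among them, and the other 4 KLRG1lo arrays lay lower over a wide range. The group means were 10.69 ± 0.04 (SD, n = 3) and 9.85 ± 0.67 (SD, n = 5), a difference of 0.84 (SE 0.32, adjusted p = 0.446). The other probe set of Pcna (10487930) differed by 0.70 between the same groups. Of the loader subunits, Rfc4 differed by 0.32, Rfc3 by 0.25, Rfc2 by 0.12 and Rfc5 by 0.072, and the interval of each included 0. Rfc2 had the least steady values, with 6.68, 7.73 and 8.17 on the KLRG1hi arrays, so its first array lay below all KLRG1lo arrays.

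Among the polymerases and their partners, primase and Pole showed the clearest shift, and all 6 genes were higher in KLRG1hi cells. Prim1 (probe set 10367076), the catalytic subunit of primase, had log2 signals of 6.14, 6.87 and 7.05 in WT KLRG1hi and 5.53, 6.70, 5.49, 5.71 and 5.99 in WT KLRG1lo. KLRG1lo array 2 lay among the KLRG1hi arrays and the other 4 lay below them. The difference was 0.80 (SE 0.25, 95% interval 0.27 to 1.33, adjusted p = 0.235), and Prim2, the other primase subunit, differed by 0.56 (adjusted p = 0.271). Pole, the catalytic subunit of the polymerase of the leading strand, had 6.13, 7.05 and 6.69 in KLRG1hi and 6.01, 6.22, 5.77, 5.56 and 5.69 in KLRG1lo. Its difference of 0.77 (SE 0.21) had the smallest adjusted p of the 35 genes, 0.113, and 1 KLRG1lo array lay above the lowest KLRG1hi array.

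Pold1, the catalytic subunit of the main polymerase of the lagging strand, had a smaller but steadier difference. It measured 7.33, 7.41 and 7.22 in KLRG1hi and 7.04, 7.14, 6.93, 6.89 and 6.93 in KLRG1lo, with no overlap, and differed by 0.33 (SE 0.13, adjusted p = 0.468). Pola1, the polymerase that extends the primer, differed by 0.086 (95% interval -0.21 to 0.38). Rpa2, a subunit of the protein that coats single-stranded DNA, differed by 0.34, but its KLRG1hi arrays ran from 7.24 to 8.85, wider than the KLRG1lo range of 7.40 to 8.13.

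Lig1 (probe set 10550102), the ligase that seals the fragments of the lagging strand, had log2 signals of 7.22, 7.55 and 7.68 in WT KLRG1hi and 7.06, 7.28, 6.52, 6.64 and 6.68 in WT KLRG1lo. KLRG1lo array 2 was the single array of its group above the lowest KLRG1hi array. The difference was 0.65 (SE 0.20, adjusted p = 0.218). Fen1, the nuclease that trims the same fragments, differed by 0.34 (adjusted p = 0.842). Of the chaperone subunits that place histones on new DNA, Chaf1b (probe set 10437040) had 7.32, 7.79 and 7.83 in KLRG1hi and 7.57, 7.81, 7.41, 6.69 and 7.23 in KLRG1lo. These overlapped over most of their range, the difference was 0.30 (SE 0.21, adjusted p = 0.913), and Chaf1a differed by 0.19.

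**Figure D2:**
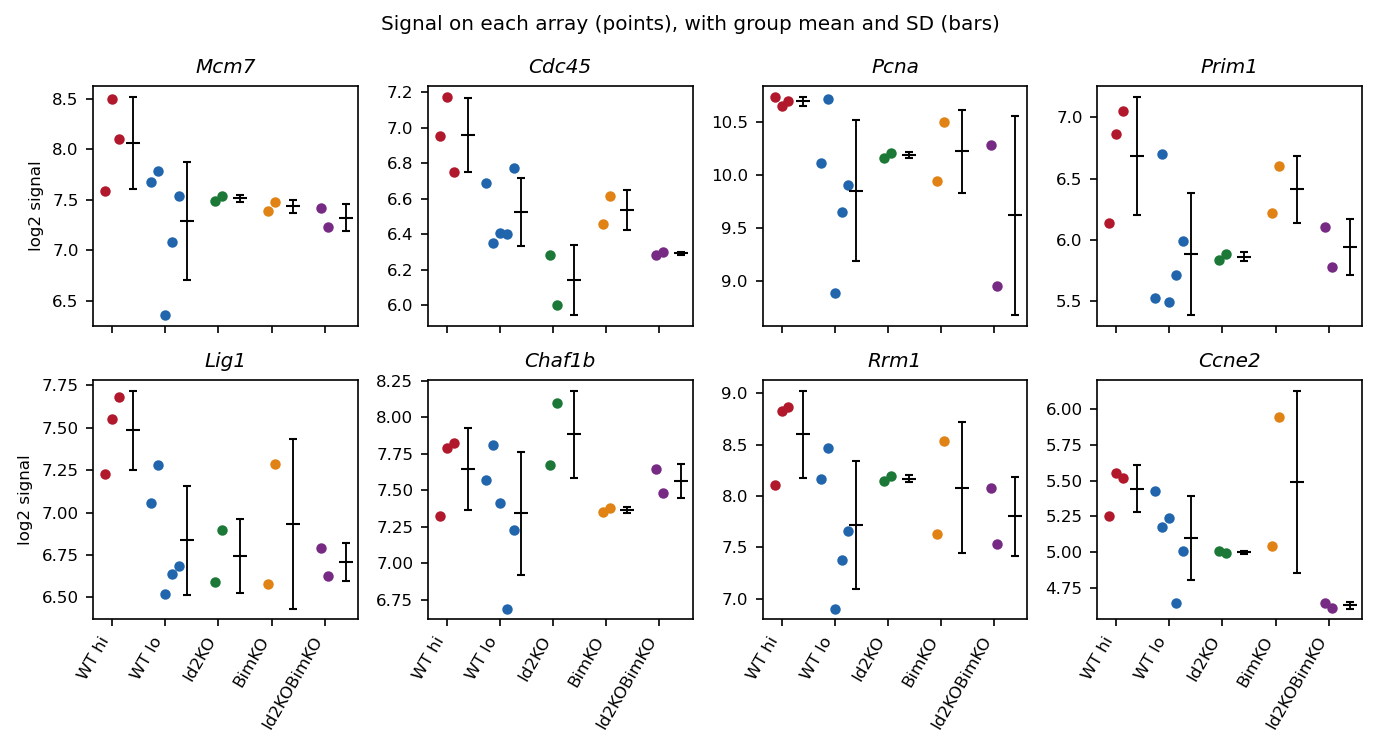
Log2 signal on each array (points) of the gene with the largest difference between the WT populations in each of 8 roles, with the group mean and SD (bars) beside the points, for WT KLRG1hi (n = 3), WT KLRG1lo (n = 5) and Id2KO, BimKO and Id2KOBimKO (n = 2 each). The axis of each panel has its own range; Pcna lies at 10.65 to 10.73 on the WT KLRG1hi arrays and spreads from 8.88 to 10.71 on the WT KLRG1lo arrays.

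The nucleotide synthesis genes did not move as a group. Rrm1 (probe set 10555695), the large subunit of ribonucleotide reductase, had the largest difference of all 35 genes, with log2 signals of 8.11, 8.82 and 8.86 in WT KLRG1hi and 8.17, 8.47, 6.90, 7.37 and 7.66 in WT KLRG1lo. KLRG1hi array 1 lay under KLRG1lo arrays 1 and 2 and above the other KLRG1lo arrays. The difference was 0.89 (1.85-fold, SE 0.30, 95% interval 0.25 to 1.52, adjusted p = 0.322). Tyms, which makes thymidylate, differed by 0.014 (95% interval -0.31 to 0.34), Dut, which breaks down dUTP, by -0.031 (95% interval -0.37 to 0.31) and Tk1, which phosphorylates thymidine, by -0.13 (95% interval -0.49 to 0.23). All 3 upper bounds lay below the median difference of the 35 genes. The other probe set of Tk1 (10582809) had the opposite sign, 0.20.

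Among the G1/S drivers, Ccne2 (probe set 10503264), 1 of the E-type cyclins, had log2 signals of 5.25, 5.56 and 5.52 in WT KLRG1hi and 5.43, 5.18, 5.24, 4.65 and 5.01 in WT KLRG1lo, and the groups overlapped. The difference was 0.34 (SE 0.20, adjusted p = 0.858), Ccne1, the other E-type cyclin, differed by 0.27 and the transcription factor E2f1 by 0.077. Ccne2 lay below the background median on 7 of 14 arrays and E2f1 on 1, so their signals were close to background. Orc1 was below it on 12 arrays and Gins1 on all 14. Orc1 had 5.11, 5.27 and 4.77 on the KLRG1hi arrays and 4.62 to 5.15 on the KLRG1lo arrays, and Gins1 had 3.92 to 4.58 and 4.01 to 4.58.

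Other genes of the same pathways were taken from lists of their roles. Of 14 mitosis genes tested, all 14 were higher in KLRG1hi cells, with a median of 0.68. At an adjusted p under 0.05 in limma 6 of the 14 rose, where 98 of all 14438 genes tested did. These were the kinesin Kif11 (1.05, adjusted p = 0.0107), cyclin A2 Ccna2 (0.85, adjusted p = 0.0201), Mki67, the gene of the Ki-67 protein (0.90, adjusted p = 0.0259), topoisomerase Top2a (0.97, adjusted p = 0.0264), the spindle checkpoint kinase Bub1b (0.88, adjusted p = 0.0345) and Cdk1 (0.71, adjusted p = 0.0357). Of 18 other fork genes 16 were higher and 1 rose, Clspn, a mediator of the replication checkpoint (0.68, adjusted p = 0.0252). Of 9 replication-coupled chromatin genes 8 were higher and 1 rose, the histone chaperone Asf1b (0.99, adjusted p = 0.0218), and of 14 other G1/S drivers 11 were higher and 1 rose, the activator E2f2 (0.59, adjusted p = 0.0375).

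No gene passed in the other lists, where 11 of 13 other licensing genes, 14 of 26 other nucleotide synthesis genes, 11 of 17 inhibitors and repressor E2Fs and 5 of 8 checkpoint genes were higher, and 3, 1, 3 and 2 genes of these lists had an unadjusted p under 0.05 in limma, against 7.2% of all genes tested. Rrm2, the small subunit of ribonucleotide reductase, measured 8.29, 8.76 and 7.94 on the KLRG1hi arrays and 7.51 to 7.88 on the KLRG1lo arrays, without overlap. Its difference of 0.66 (SE 0.18, adjusted p = 0.108) lay near that of Rrm1. Clspn separated the populations as well, with 6.60 to 6.93 against 5.92 to 6.28, and so did E2f2, with 8.05 to 8.32 against 7.54 to 7.79. The mitosis count depended on which arrays were kept, and so did the share of all genes tested that passed, 0.942% with all arrays. The count was 0 without KLRG1hi array 2 (0.312% of all genes tested) and 1 without KLRG1lo array 3 (0.582%). It was 2 without KLRG1lo array 4 (0.603%) or 5 (0.506%) and 4 without KLRG1lo array 1 (0.616%). Against KLRG1lo arrays 1 and 2 only it was 0 (0.249%), and against KLRG1lo arrays 3 to 5 only 7 (1.77%). All 14 genes were higher each time. With the replicate number as a block, without KLRG1hi array 2 or against KLRG1lo arrays 1 and 2 only, none of the 9 pathway genes passed. Clspn passed in 13 of 20 alternatives, Asf1b in 16 and E2f2 in 9, and E2f2 lost the call without KLRG1hi array 1 or 2 and without KLRG1lo array 1, 3, 4 or 5.

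**Figure D3:**
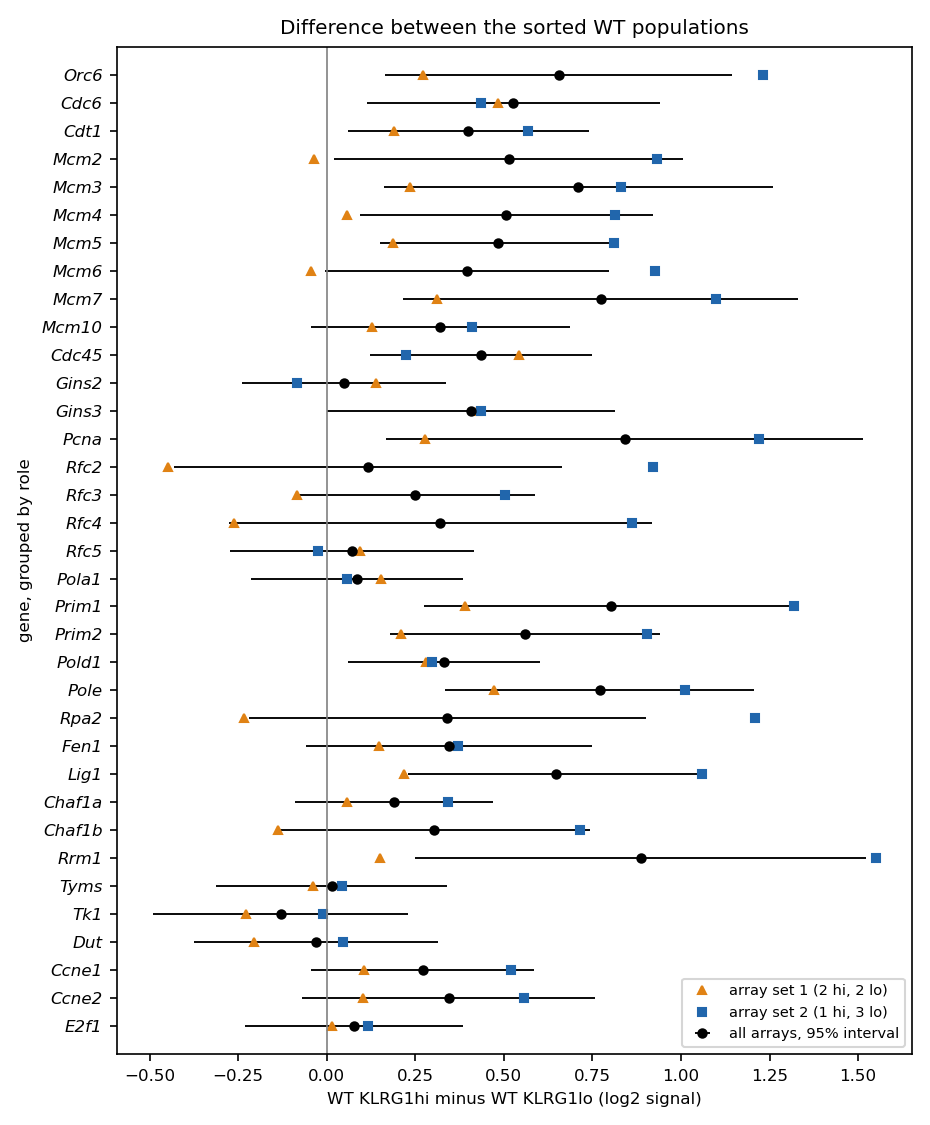
Difference between WT KLRG1hi and WT KLRG1lo in log2 signal (horizontal axis) for the 35 genes tested (rows, grouped by role), with the fitted value over all arrays and its 95% interval (black), the plain difference of means among the 6 arrays of low background (triangles, 2 against 2 WT arrays) and among the other 8 (squares, 1 against 3 WT arrays). The squares lie mostly to the right of the triangles: 32 of 35 genes were higher within the squares with a median of 0.57, and 25 of 35 within the triangles with a median of 0.14.

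The WT KLRG1lo arrays were not alike in these genes. On arrays 1 and 2, 31 of the 35 genes averaged higher than on arrays 3 to 5, by a median of 0.346, and 18 of them did so without overlap (51.4%), against 26.3% of all genes tested. Mcm3 was 1.04 higher on arrays 1 and 2, Rrm1 1.00, Pcna 0.93 and Mcm2 0.85, while Cdc45, Gins2, Gins3 and Pola1 were 0.0081 to 0.13 lower there. This gap within 1 label was of the size of the median difference between the sorted populations. The split follows the background of the arrays, given next, and was made after the data were seen. On WT KLRG1lo arrays 1 to 5, 25, 29, 5, 7 and 9 of the 35 genes lay above their own mean over all arrays. The KLRG1hi arrays had 24, 32 and 31 such genes.

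Other measures moved along with this gap. The interquartile range of log2 values on an array, its spread, was 2.68 and 2.82 on WT KLRG1lo arrays 1 and 2 and 2.46, 2.48 and 2.57 on arrays 3 to 5, against 2.44, 2.67 and 2.84 on the KLRG1hi arrays. Background was 5.01 and 5.06 on KLRG1lo arrays 1 and 2 and 5.21 to 5.24 on arrays 3 to 5. Markers of other cells were higher on arrays 3 to 5: the mean log2 signal of 6 measured B cell genes was 5.60 and 5.50 on arrays 1 and 2 and 6.04 to 6.50 on arrays 3 to 5, that of 7 dendritic cell genes was 5.28 and 5.11 against 5.93 to 6.30, and that of 5 red cell precursor genes was 5.72 and 5.53 against 6.27 to 6.74. The same order held for 6 monocyte and macrophage genes, with 5.52 and 5.61 against 6.00 to 6.51, and for 7 neutrophil genes, with 5.14 and 4.99 against 5.50 to 6.01. With the spread of each array as a covariate, 31 of the 35 genes were higher in KLRG1hi than in KLRG1lo cells (median 0.306). With the array sets of low and higher background as a block there were 33 of 35 (median 0.344). What part any of these measures had in the difference of the replication genes was not tested.

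Over the groups, the B cell list ranged from 5.34 to 5.57 in WT KLRG1hi, 5.50 to 6.50 in WT KLRG1lo, 5.46 to 5.63 in Id2KO, 5.58 to 6.19 in BimKO and 5.85 to 5.95 in Id2KOBimKO. For dendritic cells the same groups gave 4.80 to 5.34, 5.11 to 6.30, 4.78 to 5.14, 5.01 to 6.05 and 5.23 to 5.66. Red cell precursor genes lay at 5.57 to 5.96, 5.53 to 6.74, 5.45 to 5.57, 5.69 to 6.14 and 5.61 to 6.70, monocyte and macrophage genes at 5.39 to 5.80, 5.52 to 6.51, 5.38 to 5.40, 5.45 to 6.02 and 5.39 to 5.83, and neutrophil genes at 4.95 to 5.32, 4.99 to 6.01, 4.79 to 5.06, 5.05 to 5.41 and 4.97 to 5.08. The 3 genes for CD4 and regulatory T cells stayed within 6.16 to 6.55 on all arrays. NK cell genes, some of which effector CD8 T cells express too, averaged 7.04 to 7.86 on the KLRG1hi arrays and 6.27 to 7.20 elsewhere. No array signal reaches 0, and some markers, such as Ms4a1 (3.82 to 5.50), Clec9a (3.14 to 3.94) and Ly6g (3.95 to 4.69), lay at or near background. Others of the same lists varied widely and were well above background on some arrays. Among them were Cd22 (5.49 to 7.15), Cd74 (4.67 to 8.73), H2-Aa (3.71 to 7.93) and S100a9 (4.68 to 7.96). Lyz2 of the monocyte and macrophage list (4.98 to 8.44) and Slc4a1 of the red cell precursor list (5.66 to 8.37) did the same.

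Taking only part of the KLRG1lo arrays changed the calls. Against KLRG1lo arrays 3 to 5 alone, 9 of the 35 genes passed, where 1.77% of all genes tested did (Lig1, Mcm2, Mcm3, Mcm4, Mcm7, Pcna, Pole, Prim1 and Rrm1, all higher in KLRG1hi cells, by 0.80 to 1.29), and against arrays 1 and 2 alone 0 passed (0.249% of all genes tested did) and 28 of 35 were higher. With the spread of each array as a covariate, 6 passed (Lig1, Mcm5, Pole, Prim1, Prim2 and Rrm1), against 2.6% of all genes tested. Leaving out KLRG1hi array 1 let 3 pass (Pole, Prim1 and Prim2), against 1.24% of all genes tested, and leaving out KLRG1lo array 2 let 1 pass, Prim1, against 1.18%.

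**Figure D4:**
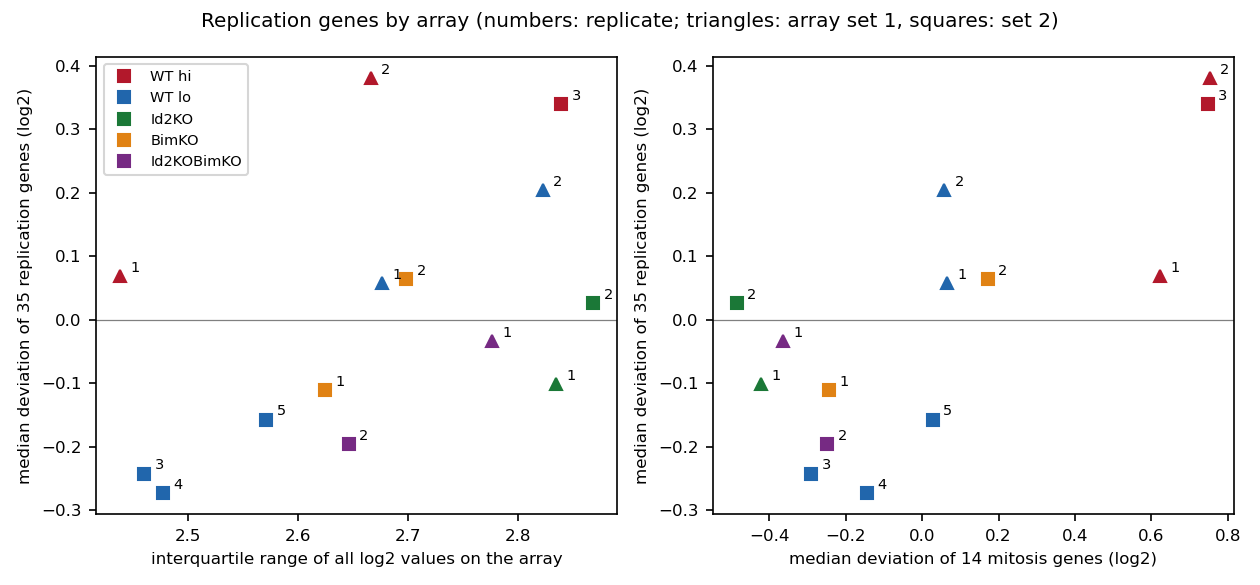
Median deviation of the 35 replication genes from their own means over all arrays (vertical axis, log2), for each of the 14 arrays, set against the interquartile range of all log2 values on the array (left) and against the median deviation of 14 mitosis genes (right). Colours stand for the groups, numbers for the replicate, triangles for the 6 arrays of low background and squares for the other 8; WT KLRG1lo arrays 3 and 4 lie lowest at -0.24 and -0.27, and WT KLRG1hi arrays 2 and 3 lie highest at 0.38 and 0.34 with mitosis genes at 0.75.

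The mitosis genes and the replication genes did not order the arrays alike. All 3 WT KLRG1hi arrays had mitosis genes 0.62 to 0.75 above their means, above every other array, while the replication genes of KLRG1hi array 1 stood at 0.069, below KLRG1lo array 2 at 0.20. Both Id2KO arrays had the lowest mitosis values, -0.42 and -0.485, with replication genes at -0.10 and 0.027. These are values of single arrays and were not compared by a test.

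The second question is what loss of Id2 did to the replication genes in KLRG1lo cells. Comparisons with WT share the same 5 WT KLRG1lo arrays. In Id2KO 21 of 35 genes were higher than in WT, with a median of 0.026, against 52.2% of all genes tested. None passed limma's test, where 0.111% of all genes tested did, and 3 of 35 had an unadjusted p under 0.05, against 18.1% of all genes tested. Licensing genes apart from Cdc6 were slightly higher, 8 of 9 with a median of 0.21, and of the 4 helicase activation genes 3 were lower, with a median of -0.26.

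Cdc6, which brings the Mcm ring to origins, had the lowest difference, with log2 signals of 6.01 and 5.58 in Id2KO and 6.68, 6.38, 5.99, 6.85 and 6.10 in WT KLRG1lo. Id2KO array 2 lay below every WT KLRG1lo array and array 1 lay just inside their range. The difference was -0.61 (SE 0.22, 95% interval -1.08 to -0.13, adjusted p = 0.275). Cdc45 measured 6.28 and 6.00 in Id2KO and lay below all WT KLRG1lo arrays, with a difference of -0.38 (SE 0.17, adjusted p = 0.275), and Chaf1a was the other gene below them without overlap, where 14.2% of all genes tested lay lower without overlap. Chaf1b went the other way, with 7.67 and 8.09 in Id2KO and a difference of 0.54 (SE 0.24, adjusted p = 0.275).

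In Id2KOBimKO against WT KLRG1lo, 17 of 35 genes were higher (49.8% of all genes tested), with a median of -0.0024, 0 passed limma's test (0.0623% of all genes tested did) and 0 had an unadjusted p under 0.05 (3.95% of all genes tested). Cdc45, Chaf1a, Pola1 and Pold1 lay below every WT KLRG1lo array, and 7.27% of all genes tested did. Cdc45 was 6.29 and 6.30 there, a difference of -0.23, and Cdc6 was 6.13 and 6.29, inside the WT range, a difference of -0.19. Against BimKO, which carries the same Bim label, 9 of 35 genes were higher in Id2KOBimKO, with a median of -0.15, while 56.7% of all genes tested were higher. None passed (0% of all genes tested did), 2 had an unadjusted p under 0.05 (1.81% of all genes tested), and 4 lay higher and 10 lower without overlap, against 17.6% and 12% of all genes tested.

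Ccne2 had the largest of these differences. Its log2 signal was 4.65 and 4.62 in Id2KOBimKO, 5.04 and 5.94 in BimKO, 5.01 and 4.99 in Id2KO and 4.65 to 5.43 in WT KLRG1lo. Of the Id2KOBimKO arrays, 1 lay just below the WT range and the other at its lower edge, BimKO array 2 lay above all other arrays, and the Id2KOBimKO values were below the background median. The difference from BimKO was -0.86 (SE 0.27, 95% interval -1.42 to -0.29, adjusted p = 1.00). Pola1 measured 6.84 and 6.94 in Id2KOBimKO and 7.38 and 7.27 in BimKO, a difference of -0.44 (SE 0.19, adjusted p = 1.00).

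Averaged over both Bim backgrounds, the Id2 effect was positive for 14 of 35 genes (52.6% of all genes tested), with a median of -0.023, and none passed (0.18% of all genes tested did). Ccne2 at -0.48, Cdc6 at -0.38 and Cdc45 at -0.31 had an unadjusted p under 0.05, which 7.11% of all genes tested had, and the adjusted p of each was 0.620. The interaction of Id2 and Bim asks whether the Id2 effect differed between the backgrounds. It was negative for 28 of 35 genes, with a median of -0.20, against 48.2% of all genes tested with a positive value, and none passed (0.0277% of all genes tested did). Ccne2 (-0.76, SE 0.35, adjusted p = 0.726) was the single gene with an unadjusted p under 0.05, against 4.27% of all genes tested, and Pcna had the largest value, -0.935, with an adjusted p of 0.726.

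The sign of the Id2 comparisons changed with the set of arrays and the fit. Among the 6 arrays of low background, the single Id2KO array was higher than the mean of WT KLRG1lo arrays 1 and 2 in 4 of 35 genes (median -0.23), and the single Id2KOBimKO array in 7 of 35 (median -0.23). Among the other 8 arrays, Id2KO array 2 was higher than the mean of WT KLRG1lo arrays 3 to 5 in 26 of 35 genes (median 0.22) and Id2KOBimKO array 2 in 21 of 35 (median 0.071). With the spread of each array as a covariate, 3 of 35 genes were higher in Id2KO than in WT (median -0.26) and 4 of 35 in Id2KOBimKO (median -0.15), with 0 passed in both. In that fit the interaction turned, with 21 of 35 genes positive (median 0.025), and with the replicate block its median was -0.088. The mean Id2 effect was positive for 18 of 35 genes without Id2KOBimKO array 2 (median 0.036) and for 20 of 35 without BimKO array 2 (median 0.055). With the array sets of low and higher background as a block, the medians kept the sign of the main fit. They were 0.033 for Id2KO and -0.012 for Id2KOBimKO against WT, -0.092 for the mean Id2 effect and -0.27 for the interaction.

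The third comparison concerns the arrays labelled BimKO. On them 28 of 35 genes were higher than in WT KLRG1lo, with a median of 0.11, against 47.3% of all genes tested, and none passed (0% of all genes tested did). E2f1, at 5.57 and 5.35 in BimKO against 5.69 to 5.93 in WT KLRG1lo, was the single gene with an unadjusted p under 0.05, against 6.91% of all genes tested. It differed by -0.37 (SE 0.17, adjusted p = 0.657). Without overlap, Ccne1 lay higher (5.6% of all genes tested) and Chaf1a and E2f1 lower (6.99%). The BimKO arrays were unlike each other: 11 genes lay above their own mean on array 1 and 20 on array 2, and Prim1, at 6.22 and 6.61, Rrm1, at 7.63 and 8.54, and Lig1, at 6.58 and 7.29, were each higher on array 2. Both BimKO arrays were in the set of higher background, where 31 of 35 genes were higher than on WT KLRG1lo arrays 3 to 5, with a median of 0.27. Against WT KLRG1lo arrays 1 and 2 only, 14 of 35 were higher (median -0.17). With the replicate block there were 17 of 35 (median -0.014), and without BimKO array 2 there were 18 of 35 (median 0.0105). With the array sets as a block there were 31 of 35 (median 0.154).

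In Id2KOBimKO against Id2KO, the Bim comparison without Id2, 8 of 35 genes were higher, with a median of -0.12, against 44.7% of all genes tested. None passed (0.0277% of all genes tested did), 0 had an unadjusted p under 0.05 (0.803% of all genes tested), and 3 lay higher and 12 lower without overlap, against 16.4% and 21% of all genes tested. Cdc6, Cdc45 and Rfc5 were the 3 higher genes, with differences of 0.42, 0.15 and 0.083. Pcna was 10.16 and 10.20 in Id2KO and 10.28 and 8.95 in Id2KOBimKO, so its difference of -0.56 came from 1 array. The direction of the whole set turned with the spread of each array as a covariate, where 26 of 35 genes were higher (median 0.079), and without Id2KOBimKO array 2, where 18 of 35 were higher (median 0.0103).

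The other genes of these pathways gave no call in the knockout comparisons with WT either. The 14 mitosis genes were all lower in Id2KO, with a median of -0.42, and all lower in Id2KOBimKO, with a median of -0.23, against WT KLRG1lo cells. Ccna2 differed by -0.71 (SE 0.19, adjusted p = 0.275) and Mki67 by -0.50 (SE 0.21, adjusted p = 0.275) in Id2KO. Rrm2 measured 7.05 and 7.04 in Id2KO against 7.51 to 7.88 in the WT, with no overlap, where 14.2% of all genes tested lay lower without overlap. Rrm2 differed by -0.62 (SE 0.20, adjusted p = 0.275), while its partner Rrm1 differed by 0.46. Clspn differed by -0.41 (adjusted p = 0.275) and Dbf4, the activator of the kinase that fires origins, by 0.54 (adjusted p = 0.275). Dck and Gart, of the same list as Rrm2, differed by 0.70 and 0.59 (adjusted p = 0.275 each). Most genes of the lists beside mitosis named here were higher in Id2KO, against 52.2% of all genes tested. These were 21 of 26 other nucleotide synthesis genes (median 0.294), 13 of 18 other fork genes (0.285) and 10 of 13 other licensing genes (0.36). Of the checkpoint genes, 7 of 8 were higher too.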

How the data were processed

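The authors deposited RMA intensity values of 34760 probe sets for 14 single-colour arrays. Per the submitters' processing notes RMA was used (no version given) and the assembly was mm9. That they are linear was inferred from their range, and their scale and centring against the scanner values are unknown. Log2 was taken with no offset and no further normalization. Of the probe sets, 21640 named a single gene, 1321 several and 11799 none, and 21553 of the 21640 were matched by Entrez number to RefSeq (assembly GRCm38.p6), which served for names and promoter sequences.

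Means of the 5 groups were estimated together from the 14 arrays with limma 3.58.1 in R 4.3.3 (9 residual and 7.99 prior degrees of freedom), with the data.table package (version 1.17.8). Tests were two-sided and adjusted by Benjamini-Hochberg over the 14438 genes tested, and each adjusted p is limma's. A gene passed at an adjusted p under 0.05. The fit was tested on simulated data with known changes between the WT populations. It called 11.9% of the genes changed by 0.5 on the log2 scale and 89.6% of those changed by 1. Of 14238 unchanged genes it called 5. The simulated noise was independent between genes and between arrays. It held no split like that among the WT KLRG1lo arrays, so these shares may not hold for the real arrays. The 37 genes, their roles, the pathway lists and the marker lists were chosen with earlier results of these data known, so a count over them is a description. Named with every array were the gene with the largest difference between WT populations in each role, and after their values were seen also Mcm3, Pole, Pold1, Rfc2, Orc1, Cdc6, Pola1 and E2f1. Of other pathway genes, up to 3 per list with the smallest unadjusted p could be named, with the further mitosis genes that passed, Rrm2 and Mki67. Some genes of the pathway and marker lists were not analysed here.

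Alternatives were a replicate block, quantile normalization, robust variances with a trend, a filter at the 60th percentile, none at all, an offset of 16, averaging the probe sets of a gene, a fit of the compared groups alone, array spread as a covariate, the array sets as a block, each array left out, and, added after seeing the data, WT KLRG1lo arrays 1 and 2 or 3 to 5 alone. The sets part the arrays at the largest gap in background. Whether replicate numbers pair the samples was not settled, and the main fit took the samples as unpaired. Of 21 pairs of arrays with the same number, 10 correlated above 0.1 in their deviations from the group mean, with a range of -0.524 to 0.41. In groups of 2 arrays these deviations mirror each other, so correlations that involve such a group cannot decide the pairing. The WT KLRG1hi and WT KLRG1lo groups are larger, and between them arrays 1, 2 and 3 correlated at -0.185, 0.0609 and -0.524.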

Additional observations from a re-analysis of the deposited data

Results flagged for a closer look

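One value among the 37 genes stood far from the rest of its group of 5 arrays. The log2 signal of Orc1, the large subunit of the origin recognition complex, was 5.15 on WT KLRG1lo array 4, while the nearest other array of the group had 4.74 and the farthest 4.62. The gap to the nearest array was 0.772 of the whole range of the group. In all 37 groups of values were looked at in this way, and chance sets a value apart in about 1 in 20. Orc1 lay below the background median on 12 of 14 arrays.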

How the results depend on the processing

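Of the comparisons, only that of WT KLRG1hi with WT KLRG1lo gave a different number of genes passed under some settings: 6 with array spread as a covariate and 9 against WT KLRG1lo arrays 3 to 5 only, against 0 before, and 0 to 3 when each array was left out. It stayed at 0 in the other 7 comparisons under all alternatives run for them. With the replicate block 0 genes of the set and 0 of the 9 pathway genes passed, and 42 instead of 136 of all genes tested passed between the WT populations. The 9 pathway genes that passed were higher under all 20 alternatives each, and lost the call in 62 of those fits. Single genes with small differences changed sign. Dut was 0.025 with quantile normalization and 0.11 against WT KLRG1lo arrays 3 to 5 only, and Tk1 was 0.037 with the mean over probe sets. With the replicate block Rfc2 was -0.081 and Tyms -0.059, and with array spread Rfc2 was -0.00617 and Tyms -0.012. Against WT KLRG1lo arrays 1 and 2 only, Chaf1b was -0.046, Rfc2 -0.13, Rfc3 -0.058, Rfc4 -0.14 and Tyms -0.042. With each array left out in turn Dut ranged from -0.084 to 0.077, E2f1 from -0.069 to 0.22, Rfc2 from -0.21 to 0.54, Rfc5 from -0.082 to 0.16, Rpa2 from -0.027 to 0.78 and Tyms from -0.10 to 0.13. The cause was not tested. Array numbers per group, and for Ccne2, E2f1, Orc1 and Gins1 a signal near background, limit what could be detected.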
